A study of Mus musculus with 26 samples.

Results

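Gm8300, BB287469, Gm2016, Gm2022 and Gm5662 are eIF1A-like genes that were taken by name from the gene table, in which all 5 were present among 55291 genes. All 5 passed the low-count filter and belonged to the 20953 genes tested. They lie on chromosome 12 of mm10 within 760 kb of each other, from 87514316 to 88274500.

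The translation initiation factor eIF1A binds the small ribosomal subunit, where it promotes scanning of the mRNA and selection of the start codon. Mouse cells make it from Eif1a and the X-linked Eif1ax. The eIF1A-like genes form a separate, recently multiplied cluster that is transcribed in the 2-cell embryo and in 2C-like cells, the rare embryonic stem cells (ESCs) that re-enter a similar state. The transcription factor DUX, made from a tandem repeat on another chromosome, binds at many 2C genes, and its binding is known to switch them on.

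RNA-seq was performed on R1 cells, a mouse ESC line grown with LIF on gelatin, in 13 groups with 2 replicates per group. The groups were untreated ESCs (ESC), cells given solvent (DMSO), retinoic acid at 0.53 µM for 48 h (RA) or the splicing inhibitor pladienolide B at 4 nM for 4 days (PlaB), and cells given doxycycline at 4 µg/mL for 24 h to express Zscan4 (Zscan4 OE), Dux (Dux OE) or Dux R70A, a mutant that the study describes as unable to phase separate (Dux R70A OE). Dux KD cells, which carry shRNAs against Dux, were given RA, PlaB or Zscan4 (Dux KD RA, Dux KD PlaB, Dux KD Zscan4 OE). SE KO cells, which the study describes as lacking the Tdpoz super-enhancer, were given RA, PlaB or Dux (SE KO RA, SE KO PlaB, SE KO Dux OE). Uninduced cells of the transgenic lines, untreated Dux KD cells and untreated SE KO cells were not analysed here, so each effect of Dux KD or SE KO was read within a treatment. Where Zscan4 OE, Dux OE or Dux R70A OE is compared with untreated ESC, transgene, doxycycline and cell line cannot be told apart. Gene counts do not show the deletion of an enhancer. How many clones each line came from is not given in the sources used here, and the labels do not say that replicates were separate cultures. The study calls the replicates of some of these comparisons biological, without saying how they were separated, so p-values measure only the spread between these samples, which may be technical.

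Some labels disagreed. SE KO RA replicate 1 is titled SE KO but carries a WT genotype label, and the calls of the 5 genes that use it are given with and without it. In both Dux KD Zscan4 OE libraries the treatment label reads no, where that of Zscan4 OE names doxycycline, so their group rests on the title. The Zscan4 copies, read as the check of induction, did not agree among themselves in these libraries. Zscan4f was at 16 and 13.2 CPM, above ESC (3.11 and 2.13 CPM; log2 fold change 2.47 ± 0.23, edgeR adjusted p = 7.8e-09) and below Zscan4 OE (56.1 and 53.1 CPM). Zscan4a, Zscan4b, Zscan4c, Zscan4d and Zscan4e were all called lower than in ESC (log2 fold changes -4.76 to -2.65), with Zscan4c at 0.779 and 1.13 CPM against 5.73 and 6.13 CPM in ESC. Which copy the transgene carries is not given in the sources used here, so for the libraries labelled Dux KD Zscan4 OE, Dux KD and a weaker or missing induction cannot be told apart. The overexpressed Dux and Dux R70A could not be read from the table: Duxf3, the Dux copy listed there, had 55 and 48 counts in Dux OE and 0 and 0 counts in Dux R70A OE, so the libraries labelled Dux R70A OE have no check of the transgene.

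Library totals ranged from 14401452 to 39402840 counts (median 18276934). All 8 ESC markers were detected in all groups, with summed levels of 3235 to 8104 CPM (counts scaled to the same library total). Single markers varied more than the sum, with Sox2 group means from 26.2 CPM in PlaB to 722 CPM in Dux KD PlaB. Fibroblast markers summed to 9.44 to 117 CPM over 6 genes and primitive endoderm markers to 5.34 to 121 CPM over 6 genes. CPM values were scaled by TMM, a factor per library that corrects for differences in RNA composition. Replicates differed most beyond sampling noise in SE KO PlaB and in the libraries labelled Dux KD Zscan4 OE, with a chi-square per degree of freedom over genes of 30.2 and 26.1, against 1.55 to 9.81 in the other 11 groups.

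The 5 genes were nearly the same in sequence, which bears on every value below. Each has a coding sequence of 435 bases, aligned without gaps, and pairs differed at 4 to 12 of these bases (97.2 to 99.1% identity), while identity to Eif1ax was only 83.7 to 85.1%. The gene models span 87514316 to 87518266 for Gm8300, 87816577 to 87820676 for BB287469, 87874072 to 87877859 for Gm2016 and 87895370 to 87895804 for Gm2022, all on the plus strand, and 88270640 to 88274500 on the minus strand for Gm5662. Gm2022 is annotated as its coding sequence alone in 1 exon, and the other 4 genes have 2 exons with 23.2 to 24.6% of the exonic length coding. The end of each coding sequence, from base 244 to the stop codon, is shown because 12 of the 16 positions that vary among the 5 genes fall there. Capitals mark these positions.
Gm8300: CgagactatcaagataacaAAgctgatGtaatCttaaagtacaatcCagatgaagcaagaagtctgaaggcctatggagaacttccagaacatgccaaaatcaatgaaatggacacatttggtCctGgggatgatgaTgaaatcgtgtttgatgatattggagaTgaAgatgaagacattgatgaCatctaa
BB287469: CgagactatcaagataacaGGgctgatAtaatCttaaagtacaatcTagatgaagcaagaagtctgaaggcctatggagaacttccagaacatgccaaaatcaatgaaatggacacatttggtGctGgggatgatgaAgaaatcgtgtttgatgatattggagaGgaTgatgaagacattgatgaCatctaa
Gm2016: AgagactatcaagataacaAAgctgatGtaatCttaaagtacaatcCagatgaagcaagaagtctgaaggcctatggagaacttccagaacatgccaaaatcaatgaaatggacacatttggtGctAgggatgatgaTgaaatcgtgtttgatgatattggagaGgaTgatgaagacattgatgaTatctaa
Gm2022: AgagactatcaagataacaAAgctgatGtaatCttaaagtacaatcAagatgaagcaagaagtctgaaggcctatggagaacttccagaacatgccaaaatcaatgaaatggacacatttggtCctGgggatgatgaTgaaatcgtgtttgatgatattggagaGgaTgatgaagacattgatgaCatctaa
Gm5662: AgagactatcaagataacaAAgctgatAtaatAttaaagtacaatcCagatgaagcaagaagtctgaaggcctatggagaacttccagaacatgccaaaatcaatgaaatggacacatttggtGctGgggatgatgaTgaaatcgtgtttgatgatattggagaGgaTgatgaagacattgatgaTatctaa
BB287469 had 5 bases that no other of the 5 genes carried and Gm8300 had 3, whereas Gm2016, Gm2022 and Gm5662 had 1 each. The counted exons could thus be told apart to different degrees. Of all 50-base windows in the exons, 73.4% of those of Gm8300 occurred in no other annotated gene, against 22.1% for Gm5662, 18.7% for Gm2016, 3.39% for BB287469 and 2.85% for Gm2022. With 100-base windows the shares were 89.2%, 41.6%, 35.3%, 8.68% and 33.3% in the same order. How reads with several matches were counted, and whether counting used strand, is not given in the sources used here, so the split of counts among the 5 genes is uncertain, and its part in any difference of level between the genes was not tested.

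The RefSeq table of promoters (GRCm38.p6, the assembly of mm10) had an entry for BB287469 only. Its 250 bases upstream of the start are shown because Dux OE is one of the inductions: chr12:87816327-87816576, plus strand, with capitals at the closest match to the DUX motif TGATTNAATCA on either strand.
BB287469 upstream: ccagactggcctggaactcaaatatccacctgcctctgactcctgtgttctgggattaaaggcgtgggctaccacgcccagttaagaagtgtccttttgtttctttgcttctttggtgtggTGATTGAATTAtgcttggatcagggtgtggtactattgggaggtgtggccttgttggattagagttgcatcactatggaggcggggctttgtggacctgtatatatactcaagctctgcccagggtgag
This match began 129 bases before the start (position -129) and held 9 of the 10 fixed letters of the motif. Over all 32851 promoter entries, 11 (0.0335%) held the exact motif and 241 (0.734%) held it with at most 1 mismatch. These entries were searched whole, whereas BB287469 was searched in its 250 upstream bases only, so the windows can differ. The match is a description of these letters and does not show binding.

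The levels of the 5 genes together differed over more than 3 orders of magnitude between groups. Their summed level was highest in PlaB at 3484 ± 2.51 CPM (SD, n = 2) and lowest in Dux R70A OE at 0.963 ± 0.147 CPM. Dux OE followed PlaB at 1677 ± 109 CPM, then SE KO Dux OE at 1344 ± 193 CPM, and the replicate ranges of these 3 groups did not overlap. Next came a band of 4 groups in which each neighbour overlapped the next: Dux KD RA at 362 ± 6.18 CPM, RA at 359 ± 64.9 CPM, SE KO PlaB at 289 ± 72.7 CPM and Zscan4 OE at 270 ± 19.1 CPM. SE KO RA at 37.7 ± 2.04 CPM stood above ESC at 23.9 ± 0.0399 CPM and Dux KD PlaB at 8.72 ± 1.17 CPM, without overlap. Dux KD Zscan4 OE at 4.65 ± 1.71 CPM overlapped DMSO at 4.13 ± 0.414 CPM. In PlaB the 5 genes took 0.391% of all counted reads. In bulk RNA, more 2C-like cells and more RNA in each such cell cannot be told apart.

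**Figure D1:**
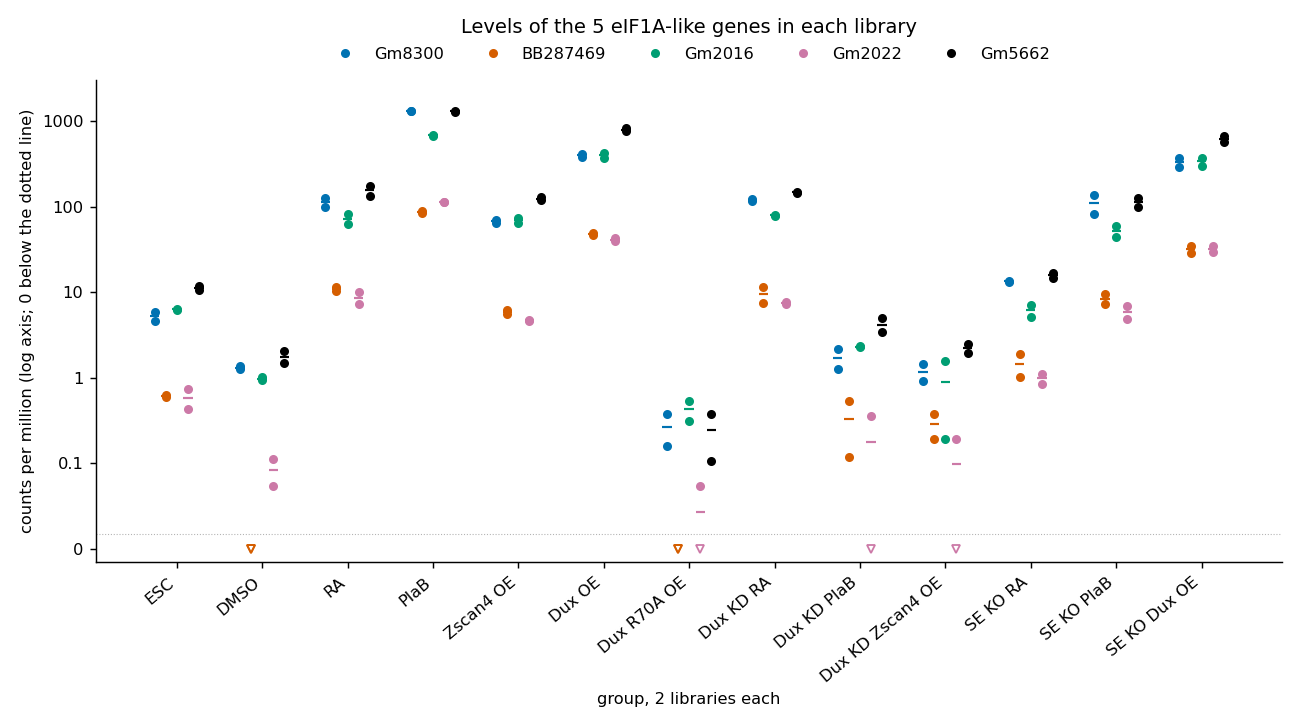
Level of each gene in each library, in CPM on a log axis, for the 13 groups; each filled point is 1 library, each short line the mean of 2 libraries, and open triangles at the foot mark libraries with 0 counts. All 5 genes were highest in PlaB, followed by Dux OE and SE KO Dux OE, and all 5 were lowest in Dux R70A OE, where BB287469, also at 0 in DMSO, had no counts.

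Per kilobase of exon, the genes did not keep 1 order of levels. In PlaB, Gm8300 at 704 ± 3.12 CPM per kb and Gm5662 at 701 ± 14.7 CPM per kb overlapped, followed by Gm2016 at 384 ± 12 CPM per kb, Gm2022 at 259 ± 0.672 CPM per kb and BB287469 at 46.5 ± 1.57 CPM per kb. In Dux OE, Gm5662 led at 431 ± 28.4 CPM per kb, and Gm2016 at 225 ± 22.0 CPM per kb overlapped Gm8300 at 213 ± 11.5 CPM per kb. Gm2022 (94.3 ± 4.25 CPM per kb) and BB287469 (26 ± 0.885 CPM per kb) were again lowest. For scale, the canonical genes were at 71.7 CPM per kb (Eif1a) and 28.2 CPM per kb (Eif1ax) in PlaB, and at 60.1 and 29.9 CPM per kb in ESC, where the 5 genes were at 0.330 to 6.07 CPM per kb.

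Gm8300 held different shares of the counts in different inductions. It took 37.9% and 37.7% of the counts of the 5 genes in the PlaB libraries and 34.6 to 40.6% in SE KO PlaB. In RA the shares were 31.4% and 31.8%, in Dux KD RA 32.8% and 33.4%, and in SE KO RA 36.7% and 34.9%. In Dux OE they were 24.0% and 23.6%, in SE KO Dux OE 25.2% and 23.9%, and in Zscan4 OE 24.6% and 25%. Dux KD PlaB, where the 5 genes together had only 162 and 132 counts, was lower than the other groups with RA or PlaB, at 22.8% and 15.9%. Gm5662 ran the other way, at 36.4 and 37.6% in PlaB against 47.2 and 47.3% in Dux OE. In counts, Gm8300 reached 1.04 and 1.0 times Gm5662 in PlaB but 0.508 and 0.499 times in Dux OE. These shares are a description with no test, and they rest on the authors' assignment of reads among near-identical genes.

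**Figure D2:**
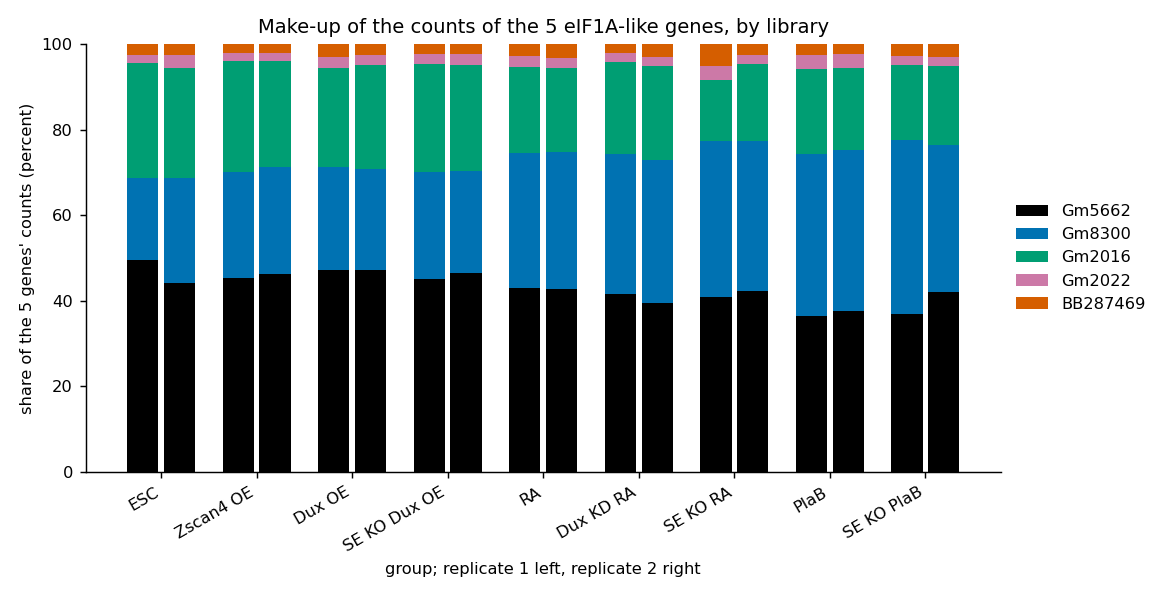
Share of the counts of the 5 genes held by each gene, in percent, with 1 stacked bar per library for the 9 groups in which the 5 genes together had the most counts. The Gm8300 segment is 37.7 to 37.9% in PlaB and narrower in Dux OE, at 23.6 to 24.0%, in both replicates.

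Both chemical inductions were compared with DMSO and share its libraries, as Zscan4 OE, Dux OE and Dux R70A OE share those of ESC. A gene was called when its adjusted p was under 0.05 and its log2 fold change was 1 or more in size, in quasi-likelihood tests of edgeR with Benjamini-Hochberg adjustment over all genes tested. Log2 fold changes are given ± their standard error. In RA, 5 of 5 genes rose, against 20.6% of all genes called higher. Gm8300 was at 1.25 and 1.37 CPM in DMSO and 127 and 99.6 CPM in RA, a log2 fold change of 6.43 ± 0.25 (edgeR adjusted p = 2.5e-17). Gm5662 went from 2.04 and 1.48 CPM to 174 and 134 CPM (log2 fold change 6.45 ± 0.19). For Gm2016, DMSO had 1.02 and 0.932 CPM and RA 81.9 and 61.8 CPM (log2 fold change 6.19). In each of these genes the RA libraries lay far above both DMSO libraries, and RA replicate 1 was the higher of its pair. Gm2022 had 2 and 1 counts in DMSO and 229 and 155 in RA, a ratio of 104 with a counting interval (95%, exact) of 35.3 to 506. BB287469 had no counts in DMSO and 261 and 220 in RA, at least 65.0-fold higher by a floor of 3 counts per library. Such intervals and floors cover counting error only. Primitive endoderm markers rose in the same comparison, from a sum of 9.58 and 7.84 CPM in DMSO to 89.4 and 92.9 CPM in RA, with 5 of 6 called higher. Fibroblast markers went from 34.9 and 34.1 CPM to 51.3 and 60.4 CPM (2 of 5 tested called higher), and 6 of 8 ESC markers were called lower. Their part in these values was not tested.

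In PlaB, 5 of 5 genes rose, where 32.3% of all genes were called higher. Gm8300 reached 1322 and 1314 CPM, a log2 fold change of 9.97 ± 0.26 over DMSO (edgeR adjusted p = 2.9e-22). Gm5662 reached 1270 and 1308 CPM (log2 fold change 9.51) and Gm2016 692 and 663 CPM (log2 fold change 9.43). The 2 PlaB libraries were close to each other in every member. BB287469, at 88.1 and 84.0 CPM, was at least 515-fold higher than DMSO. Gm2022, at 113 and 113 CPM, had a ratio of 1350 to DMSO with a counting interval of 462 to 6549. ESC markers summed to 5516 and 5047 CPM in PlaB against 7036 and 7119 CPM in DMSO, with 5 of 8 called lower. The sum understates these changes, since the median log2 fold change of the 8 markers was -2.47 (range -4.50 to 0.86). Pou5f1 (203 CPM), Sox2 (26.2 CPM), Nanog (74.1 CPM) and Esrrb (92.1 CPM) had their lowest group mean in PlaB. Dppa5a had its highest there, at 2551 CPM. Primitive endoderm markers summed to 21.3 and 22.0 CPM, with 3 of 6 called higher, and of the 5 fibroblast markers tested 2 were called higher and 1 lower. Their part in these values was not tested.

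The median log2 fold change of the 5 genes was 6.43 in RA and 9.51 in PlaB with BB287469 at its bound (6.45 and 9.97 as fitted), beside medians over all genes of 0.11 and 0.22. The size depended on the control, since the genes also differed between the controls. DMSO lay below ESC for all 5 genes (5 of 5 fell, where 7.91% of all genes were called lower): Gm8300 was at 4.61 and 5.86 CPM in ESC, Gm5662 at 11.8 and 10.5 CPM and Gm2016 at 6.41 and 6.13 CPM, and the log2 fold changes in DMSO were -1.99, -2.67 and -2.68 (edgeR adjusted p = 5.6e-05, 7.9e-10 and 1.1e-06). Gm2022 had 7 and 11 counts in ESC and BB287469 had 10 and 9, so these 2 genes rest on few reads. Fitted on these 2 groups alone, Gm2022 and BB287469 did not pass the low-count filter and were not tested, and the other 3 genes were called. Leaving out ESC replicate 2 or DMSO replicate 2 lost the call of Gm2022 (log2 fold change -2.29 in both). Measured against ESC in place of DMSO, the log2 fold changes were 3.52 to 4.44 in RA and 6.75 to 7.98 in PlaB, and all 5 genes still passed in both.

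Zscan4 and Dux, a 2C zinc-finger protein and the 2C transcription factor, were compared with ESC. In Zscan4 OE, 5 of 5 genes rose, against 7.25% of all genes called higher. Gm5662 was at 129 and 119 CPM (log2 fold change 3.47 ± 0.15, edgeR adjusted p = 1.6e-15), Gm2016 at 74.0 and 63.3 CPM (3.45) and Gm8300 at 69.8 and 64.1 CPM (3.68). BB287469 reached 6.21 and 5.59 CPM (3.25) and Gm2022 4.79 and 4.56 CPM (3.00 ± 0.37, edgeR adjusted p = 3.6e-07). No library of Zscan4 OE overlapped ESC in any of the 5 genes.

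In Dux OE, 5 of 5 genes rose by closely similar amounts, with log2 fold changes of 5.98 to 6.28, where 7.38% of all genes were called higher. Gm5662 reached 755 and 829 CPM (log2 fold change 6.15 ± 0.16, edgeR adjusted p = 1.7e-21), Gm2016 370 and 424 CPM (5.98) and Gm8300 384 and 414 CPM (6.25). BB287469 was at 49.3 and 47.0 CPM (6.28 ± 0.29) and Gm2022 at 42.3 and 39.7 CPM (6.13 ± 0.29). The spread of the 5 log2 fold changes was of the order of their standard errors. The split of reads among these near-identical genes is uncertain, so the 5 values may not be separate measurements. Against DMSO in place of ESC, the log2 fold changes of Gm8300, Gm2016, Gm2022 and Gm5662 were 8.24 to 8.83 in Dux OE and 5.67 to 6.13 in Zscan4 OE.

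In Dux R70A OE, 5 of 5 genes were lower than in ESC, where 6.72% of all genes were called lower. Gm8300 had 3 and 6 counts, Gm5662 2 and 6, Gm2016 10 and 5, Gm2022 1 and 0, and BB287469 none. No member exceeded 0.54 CPM in either library. The log2 fold change from ESC was -4.29 ± 0.52 for Gm8300 (edgeR adjusted p = 1.3e-07), -5.56 ± 0.36 for Gm5662 (edgeR adjusted p = 2.7e-12) and -3.83 for Gm2016. Gm2022 had a ratio of 20.0 (counting interval 3.16 to 834) and BB287469 was at least 3.50-fold lower. With DMSO as the control this fell to 2 of 5, Gm8300 at -2.30 (edgeR adjusted p = 0.0114) and Gm5662 at -2.89 (edgeR adjusted p = 1.0e-04). Fitted on Dux R70A OE and ESC alone, Gm8300, Gm2016 and Gm5662 were called, while Gm2022 and BB287469 did not pass the low-count filter and were not tested.

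Dux R70A OE was also compared with Dux OE directly, which carries the same induction. Here 5 of 5 genes were lower, and 7.51% of all genes were called lower. The log2 fold change was -11.70 ± 0.25 for Gm5662 (edgeR adjusted p = 1.5e-23), -10.54 for Gm8300 and -9.82 for Gm2016. BB287469 was at least 276-fold lower, and the ratio for Gm2022 was 1416 (counting interval 254 to 55988). The median was -10.18 with BB287469 at its bound, beside -0.01 over all genes.

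**Figure D3:**
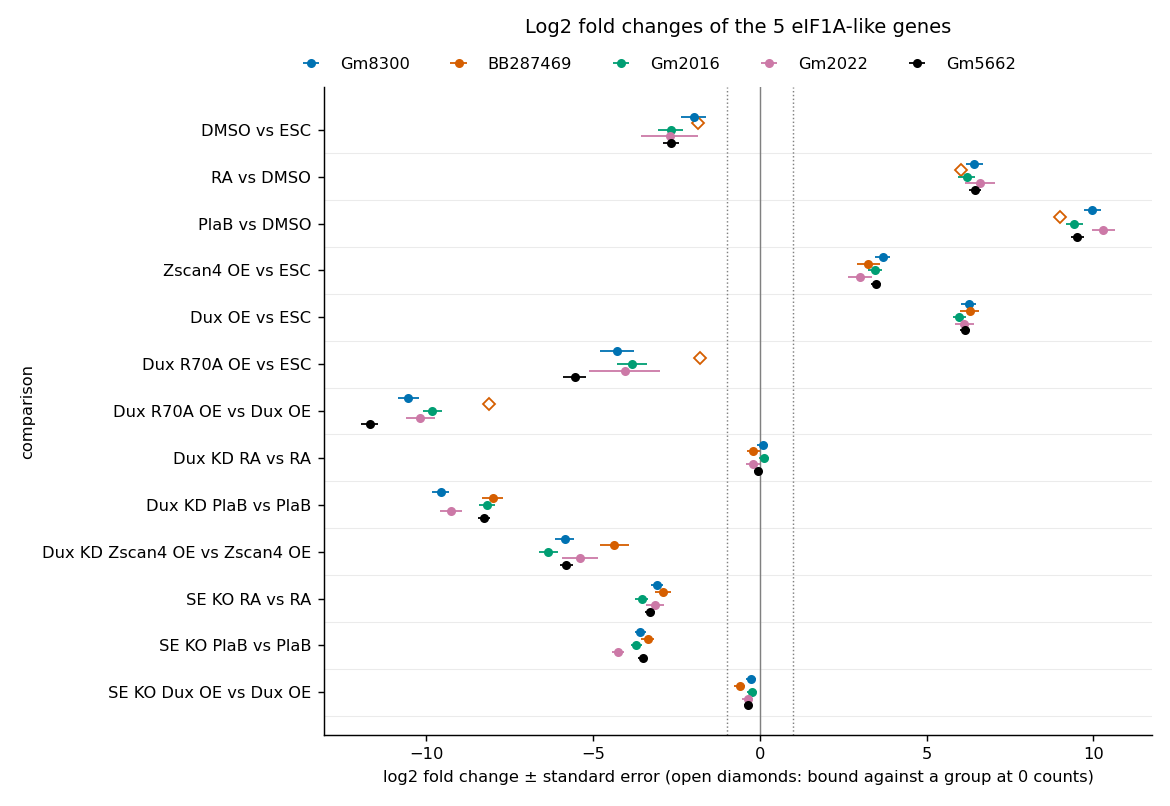
Log2 fold change of each gene in the 13 comparisons, with standard error bars; dotted lines mark the threshold of 1 and open diamonds mark the bound for BB287469 where a group had 0 counts. The 5 genes lie together on 1 side of the threshold in all comparisons except Dux KD RA against RA (-0.21 to 0.13) and SE KO Dux OE against Dux OE (-0.61 to -0.24), where they lie inside it.

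The difference between the Dux KD groups and their matched groups varied between inductions. Duxf3, the knockdown target, was read first. It had 49 and 59 counts in RA and 16 and 6 in Dux KD RA (log2 fold change -1.93, edgeR adjusted p = 0.0015), 191 and 181 in PlaB against 1 and 0 with the knockdown, and 27 and 17 in Zscan4 OE against 1 and 0 with the knockdown. The residual level was thus 0.636 CPM in Dux KD RA, against 0.0295 CPM in Dux KD PlaB and 0.0324 CPM in Dux KD Zscan4 OE.

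In Dux KD RA against RA, 0 of 5 genes passed the test. Gm8300 was at 117 and 122 CPM (log2 fold change 0.08), Gm5662 at 149 and 145 CPM (-0.07) and Gm2016 at 76.7 and 80.5 CPM (0.13). BB287469 was at 7.40 and 11.5 CPM (-0.20) and Gm2022 at 7.63 and 7.30 CPM (-0.21). The standard errors were 0.12 to 0.20 and the edgeR adjusted p-values 0.441 to 0.726. At an unadjusted p under 0.05 the count was also 0 of 5, and DESeq2 called 0 of 5, while 4.54% of all genes were called lower by edgeR. The sign of each value depended on single libraries, and leaving out 1 library at a time kept the 5 genes at 0 calls.

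In Dux KD PlaB little was left, and 5 of 5 genes were lower than in PlaB, where 28.8% of all genes were called lower. Gm8300 went from 1322 and 1314 CPM to 2.18 and 1.25 CPM (log2 fold change -9.58 ± 0.25, edgeR adjusted p = 5.4e-22). Gm5662 went to 4.95 and 3.41 CPM (-8.27) and Gm2016 to 2.30 and 2.33 CPM (-8.19). BB287469 fell to 2 and 9 counts (-8.01) and Gm2022 to 0 and 6 counts (-9.26). The summed level was 0.250% of that in PlaB. In the same comparison 5 of 8 ESC markers were called higher, and of the 6 primitive endoderm markers 2 were called higher and 3 lower. Of the 5 fibroblast markers tested, 1 was called higher and 1 lower. Their part in these values was not tested. Other initiation factors, 31 genes, summed to 15203 and 14999 CPM in Dux KD PlaB. Their sums were 10635 and 10240 CPM in PlaB and 16779 and 16680 CPM in DMSO. Whether PlaB acted equally in Dux KD PlaB and PlaB was not tested.

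In the libraries labelled Dux KD Zscan4 OE, 5 of 5 genes were lower than in Zscan4 OE, where 5.35% of all genes were called lower. Zscan4f itself was lower here by -1.89 ± 0.16 on the log2 scale, so in this difference Dux KD and the lower level of Zscan4 cannot be told apart. Gm8300 went to 0.908 and 1.43 CPM (log2 fold change -5.85 ± 0.28, edgeR adjusted p = 8.9e-15) and Gm5662 to 1.95 and 2.48 CPM (-5.81). Gm2016 had 3 counts in replicate 1 and 21 in replicate 2 (-6.34), the widest spread of the members here. BB287469 had 3 and 5 counts (-4.37 ± 0.43), and Gm2022 had 3 and 0 counts, a ratio of 44.6 (counting interval 15 to 219). The remaining sum was 1.72% of that in Zscan4 OE. Leaving out either of these replicates, which differed by more than sampling noise, kept 5 of 5 calls.

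These knockdown effects were compared by interaction terms, which share the RA and Dux KD RA libraries. The depth of the knockdown was unequal, with residual Duxf3 at 0.636 CPM in Dux KD RA. It was 0.0295 CPM in Dux KD PlaB and 0.0324 CPM in Dux KD Zscan4 OE. The part of this unequal depth in the terms was not tested. The effect in PlaB was more negative than in RA for 5 of 5 genes, by -9.66 (Gm8300) to -7.81 (BB287469) on the log2 scale, where 26.6% of all genes were called lower in this contrast. The part of an unequal action of PlaB in Dux KD PlaB and PlaB was not tested. The difference between the libraries labelled Dux KD Zscan4 OE and Zscan4 OE was more negative than the effect in RA for 5 of 5 genes, by -6.47 (Gm2016) to -4.17 (BB287469), where 6.22% were called lower, and here too Dux KD and the level of Zscan4 cannot be told apart. Zscan4c, a 2C gene that marks the 2C-like state, had the values -0.42 in RA, -10.80 in PlaB and -6.74 in Zscan4 OE, and the first did not reach the threshold. In RA and Dux KD RA the 6 primitive endoderm markers summed to 89.4 to 98.2 CPM, against 5.43 to 24.9 CPM in PlaB, Zscan4 OE and their Dux KD groups, and the part of this difference was not tested.

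SE KO was compared within RA, PlaB and Dux OE. Duxf3 averaged 0.258 CPM in SE KO RA against 2.45 CPM in RA. It averaged 1.87 CPM in SE KO PlaB against 8.73 CPM in PlaB, and 1.37 CPM in SE KO Dux OE against 3.62 CPM in Dux OE. The part of this lower Duxf3 in the values below was not tested. In SE KO RA, 5 of 5 genes fell, where 11.0% of all genes were called lower. Gm8300 was at 13.3 and 13.7 CPM (log2 fold change -3.07 ± 0.18, edgeR adjusted p = 2.6e-13), Gm5662 at 14.8 and 16.6 CPM (-3.29) and Gm2016 at 5.16 and 7.06 CPM (-3.55). BB287469 was at 1.91 and 1.01 CPM (-2.91) and Gm2022 at 1.12 and 0.846 CPM (-3.14). Neither library overlapped RA. Replicate 1, whose genotype label reads WT, lay beside replicate 2 and below both RA libraries in all 5 genes. Without it the log2 fold changes were -3.41 to -3.05 and 5 of 5 genes were still called. Fibroblast markers summed to 46.0 and 41.7 CPM and primitive endoderm markers to 45.9 and 49.9 CPM here, against 51.3 and 60.4 CPM and 89.4 and 92.9 CPM in RA, and 4 of 8 ESC markers were called lower and 1 higher. Their part in these values was not tested.

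In SE KO PlaB, 5 of 5 genes fell from PlaB, where 26.1% of all genes were called lower. Gm8300 was at 138 and 82.0 CPM (log2 fold change -3.58 ± 0.17, edgeR adjusted p = 7.6e-17), Gm5662 at 126 and 99.5 CPM (-3.52) and Gm2016 at 59.8 and 43.6 CPM (-3.71). BB287469 was at 9.45 and 7.22 CPM (-3.36) and Gm2022 at 6.89 and 4.89 CPM (-4.25). Replicate 1 was the higher in all 5 genes, and both replicates were far below PlaB. These replicates had the largest chi-square per degree of freedom of all groups (30.2), and without either one 5 of 5 genes were still called. Primitive endoderm markers summed to 113 and 121 CPM here, against 21.3 and 22.0 CPM in PlaB, and 5 of 8 ESC markers were called higher and 1 lower. Their part in these values was not tested. The 31 other initiation factor genes summed to 13750 and 14978 CPM in SE KO PlaB, against 10635 and 10240 CPM in PlaB. Whether PlaB acted equally in these 2 groups was not tested. The sum of the 5 genes kept 8.28% of its PlaB level, beside 10.5% of its RA level in SE KO RA (10.9% in replicate 2 alone).

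In SE KO Dux OE, the 5 genes stayed high and 0 of 5 passed the threshold, where 3.84% of all genes were called lower. Gm5662 was at 666 and 560 CPM (log2 fold change -0.37 ± 0.12, edgeR adjusted p = 0.0219), and BB287469 at 34.7 and 28.4 CPM (-0.61 ± 0.17, edgeR adjusted p = 0.00914). Both were lower than in Dux OE by adjusted p but by less than the required log2 fold change of 1. Gm8300 was at 373 and 288 CPM (-0.27), Gm2016 at 372 and 301 CPM (-0.24) and Gm2022 at 34.3 and 29.5 CPM (-0.36), with edgeR adjusted p-values of 0.199, 0.263 and 0.111. At an unadjusted p under 0.05 the count was 3 of 5, and DESeq2 called 0 of 5. The ranges of Gm2016 overlapped those in Dux OE and those of the other 4 genes did not. Replicate 2 was the lower in all 5 genes. The 6 fibroblast markers summed to 115 and 117 CPM in SE KO Dux OE against 47.2 and 44.5 CPM in Dux OE, and 4 of the 5 tested were called higher. Of the 6, 2 had no counts in Dux OE and none was without counts in SE KO Dux OE. Their part in these values was not tested.

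The SE KO effect in Dux OE was less negative than in RA for 5 of 5 genes, with interaction terms of 2.30 (BB287469) to 3.31 (Gm2016), where 12.1% of all genes were called higher in this contrast. Without SE KO RA replicate 1 the count was also 5 of 5. Between PlaB and RA, 1 of 5 genes differed, Gm2022 at -1.11 ± 0.37 (edgeR adjusted p = 0.0115), where 20.7% of all genes were called lower. Gm8300 was at -0.51, BB287469 at -0.46, Gm5662 at -0.22 and Gm2016 at -0.16, with edgeR adjusted p-values of 0.0581 to 0.605. The call of Gm2022 was lost without RA replicate 2 (-0.87), SE KO RA replicate 1 (-0.88) or SE KO PlaB replicate 2 (-0.86).

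Of the 13 comparisons, the canonical genes Eif1a and Eif1ax were called in RA against DMSO only, both lower. Eif1a was at 250 CPM in ESC, 310 in DMSO, 120 in RA, 299 in PlaB, 323 in Zscan4 OE and 203 in Dux OE. Its log2 fold change was -1.36 in RA (edgeR adjusted p = 2.7e-14) and -0.05 in PlaB (edgeR adjusted p = 0.538). Eif1ax was at 270 CPM in DMSO, 132 in RA and 148 in PlaB, log2 fold changes of -1.04 and -0.86. The size depended on the control here too, since Eif1ax was at 158 CPM in ESC and 0.78 higher in DMSO on the log2 scale. Against ESC the log2 fold change in RA was -0.26 for Eif1ax, which was not called, and -1.06 for Eif1a, which was (edgeR adjusted p = 0.0031 and 4.4e-12). Dux OE left both within 0.31 of ESC on the log2 scale. Eif1ad, which encodes an eIF1A-domain protein, was called higher in PlaB at 1.17 and in no other of the comparisons above with DMSO or ESC. In Dux KD PlaB it fell by 1.09 on the log2 scale.

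Of 31 other initiation factor genes, 30 were tested. In RA 5 were called lower (median log2 fold change -0.45), and in PlaB 2 were higher and 13 lower (median -0.76). In Dux OE their log2 fold changes lay between -0.58 and 0.38 (median -0.16), and in Dux KD PlaB 12 rose and 3 fell. In Dux R70A OE against ESC, 1 rose and 2 fell. Of all 20953 genes tested, 2180 were called lower in RA, and 6759 were called higher and 5572 lower in PlaB. The counts over all genes were 5468 higher and 6041 lower in Dux KD PlaB. They were 2143 higher and 1407 lower in Dux R70A OE against ESC.

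A list of 23 other 2C genes, all tested, went the same way as the 5 genes in most comparisons. The list holds Duxf3, the knockdown target, and Zscan4b, Zscan4c, Zscan4d and Zscan4f, of the family induced in Zscan4 OE. In RA 19 were called higher, in PlaB 20, in Zscan4 OE 18 and in Dux OE 20. The shares of all genes called higher were 20.6%, 32.3%, 7.25% and 7.38%. In Dux R70A OE against Dux OE 20 were lower, and in Dux KD PlaB 21, beside 7.51% and 28.8% of all genes. In Dux KD RA, 6 of 23 were lower, among them Duxf3, and 1 higher (median log2 fold change -0.32), and in SE KO Dux OE 12 of 23 were lower (median -1.08). The shares of all genes called lower were 4.54% and 3.84%. Zscan4c fell in SE KO Dux OE, from 811 and 810 CPM to 388 and 342 CPM (log2 fold change -1.15 ± 0.09). The list includes genes the study also discusses, so it is not independent evidence of direction.

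Within 500 kb on either side of the 5 genes, 117 further genes were listed. Of these, 11 had a coding sequence at least 97.0% identical to 1 of the 5, and Gm4027 was 100% identical. Since copies this alike may share reads with the 5 genes and with each other, their calls may not be separate measurements. All 11 copies were called higher in RA, PlaB and Dux OE, and 10 of 11 in Zscan4 OE. The shares of all genes called higher were 20.6%, 32.3%, 7.38% and 7.25%. Shares called lower were 28.8% in Dux KD PlaB, 5.35% in Dux KD Zscan4 OE, 11.0% in SE KO RA and 26.1% in SE KO PlaB. All 11 were lower in Dux KD PlaB, Dux KD Zscan4 OE, SE KO RA and SE KO PlaB, and all 11 also without SE KO RA replicate 1. In Dux KD RA their log2 fold changes were -0.88 to 0.44 (median -0.38), and in SE KO Dux OE -0.88 to 0.14 (median -0.69). In each of these comparisons 0 of 11 were called, while 8 and 10 of 11 lay below 0. Gm8332 and Gm5039 were lower by adjusted p in both, but by less than the threshold. Gm8332 was at -0.88 in both (edgeR adjusted p = 6.8e-06 in each), and Gm5039 at -0.53 and -0.69 (edgeR adjusted p = 7.5e-04 and 4.9e-05). The most abundant copy, Gm5039, was at 1065 and 1010 CPM in PlaB, 681 and 713 CPM in Dux OE, and 464 and 400 CPM in SE KO Dux OE. Gm8332 was at 423 and 437 CPM in PlaB and 263 and 257 CPM in Dux OE.

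The other genes of the region split by position. The stretch from the first to the last copy, 87494721 to 88324026, was set after the values were seen, so its counts are a description. Copies were told by their coding sequence only. Whether the other genes resemble the copies in other ways, or share reads with them, was not tested. Of 62 other genes listed inside the stretch, 40 passed the low-count filter. Of these 40, 38 were called higher in PlaB and 37 in Dux OE. Outside it, 20 of 44 such listed genes were tested, and 7 were called higher in PlaB and 2 in Dux OE. The shares of all tested genes called higher were 32.3% and 7.38%. A gene almost without counts in DMSO and ESC passes the low-count filter only by its counts in other groups. The counts inside and outside the stretch thus describe the tested genes only. In Dux KD PlaB 37 of the 40 were lower, and in SE KO Dux OE 6 of the 40. Gm21939, inside the stretch, was at 302 and 261 CPM in PlaB and at 0.283 and 0.164 CPM in DMSO. Outside it, Ahsa1, a co-chaperone of Hsp90, was at 271 and 244 CPM in PlaB and 275 and 268 CPM in DMSO, whereas Snw1, a splicing and transcription cofactor, was at 288 and 258 CPM in PlaB and 109 and 106 CPM in DMSO.

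**Figure D4:**
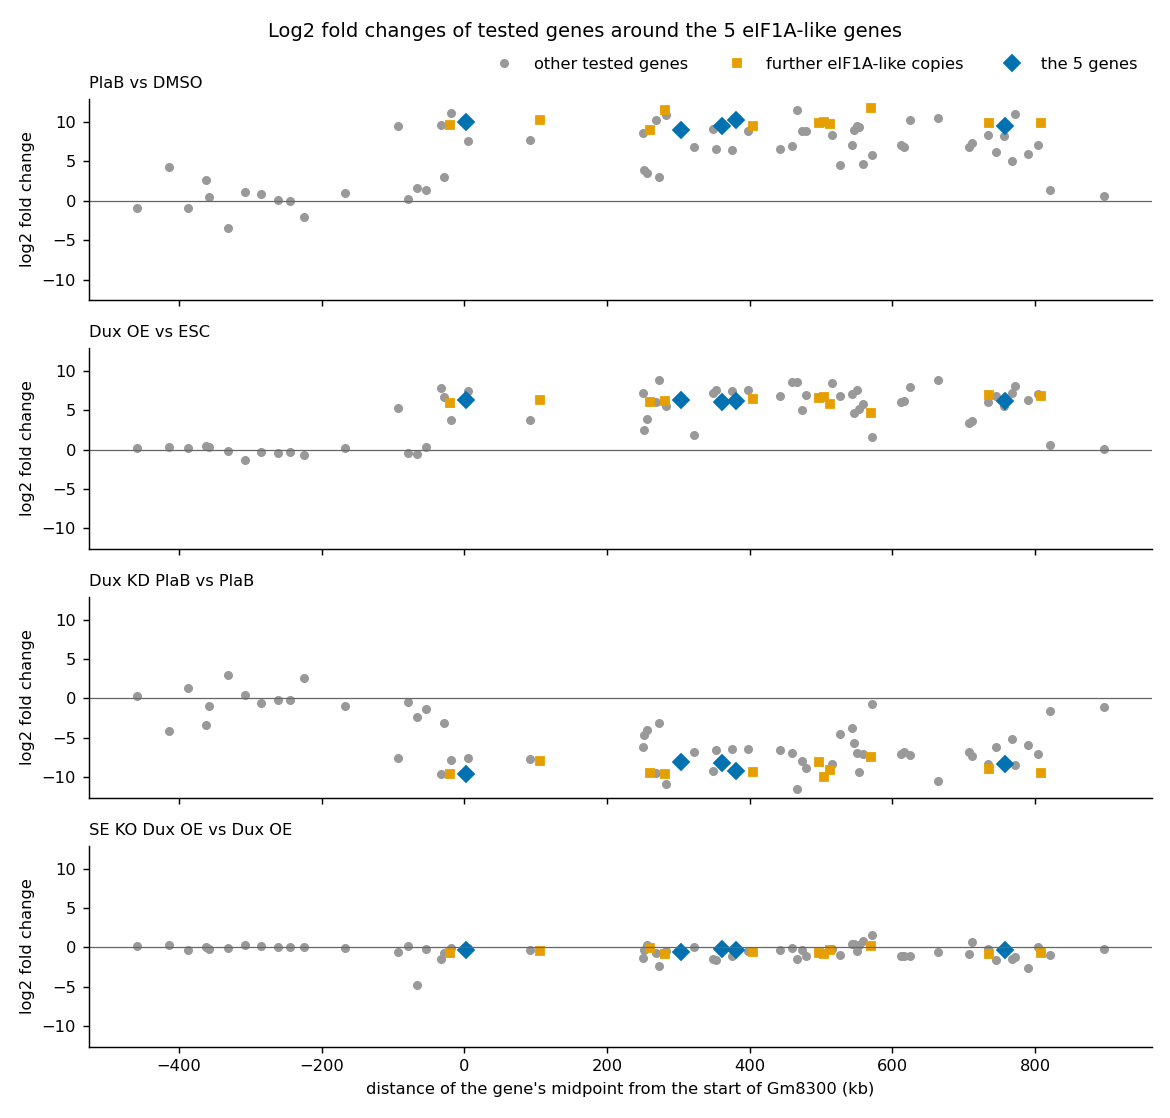
Log2 fold change of each tested gene against the distance of its midpoint from the start of Gm8300, in kb, in 4 comparisons; diamonds are the 5 genes, squares the 11 further copies and grey circles the other 60 tested genes, as fitted except BB287469 in PlaB against DMSO, which is at its bound, so that values of other genes with no counts in a group depend on the prior count. Inside the stretch that holds the copies, 38 of 40 other tested genes were called higher in PlaB, and outside it 7 of 20. Only genes that passed the low-count filter are counted, and of all tested genes 32.3% were called higher.

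Across the 13 group means, the genes most like the sum of the 5 were Zscan4d (Pearson's r = 0.996), Gm5039 (0.996), Gm8332 (0.995), Zscan4c (0.994) and Gm21939 (0.994), on log2 CPM among 18638 genes with a group mean of at least 1 CPM. Of these, 3 lie in the same region of chromosome 12, and the Zscan4 genes lie on chromosome 7. Between pairs of the 5 genes, r was 0.980 to 0.992. All these points share their libraries and the same large steps between groups, so they give likeness only.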

How the data were processed

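RNA-seq libraries were made from poly(A)-selected RNA with the NEBNext Ultra II RNA kit. The authors deposited 1 table of raw read counts per gene for all 26 libraries. The submitters' processing notes name FastQC, Trimmomatic, STAR, featureCounts and DESeq2 with build mm10, and their settings are not given in the sources used here. Groups came from sample titles. The members and gene lists were chosen with earlier results of these data known. Counts were tested with edgeR 4.0.16 (R 4.3.3): filterByExpr, TMM scaling and quasi-likelihood F-tests in 1 model of 13 groups, with a prior count of 0.125 for fold changes. Calls required an adjusted p under 0.05 and a log2 fold change of 1 or more in size. Levels were scaled by TMM, and 3 counts per library served as the floor, which was 0.0796 to 0.226 CPM. By rule, the text names all 5 genes, Duxf3, Zscan4c and the eIF1A genes, the 5 regional genes with the highest group mean and the 5 most similar profiles. The scripts were tested on simulated data. Gene positions matched GENCODE M21 for all 5 genes, and sequences were read from that annotation and from RefSeq. Alternatives were RLE scaling, library size only, no filter, DESeq2 1.42.0, 2-group fits, a replicate block, other controls and leaving out each library. Replicate numbers did not pair the samples, since same-numbered deviations correlated at -0.0473 to 0.0237.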

Additional observations from a re-analysis of the deposited data

Results flagged for a closer look

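A difference between inductions in the effect of Dux KD or SE KO was present for 16 of 20 interaction terms, each tested in edgeR's quasi-likelihood model. These terms share the RA libraries and, within each perturbation, the Dux KD RA or SE KO RA libraries. Residual Duxf3 was unequal, at 0.636 CPM in Dux KD RA, 0.0295 CPM in Dux KD PlaB and 0.0324 CPM in Dux KD Zscan4 OE. Duxf3 was also lower in each SE KO group than in its matched group. The part of these Duxf3 levels in the terms was not tested. The Dux KD effect in PlaB minus that in RA was -9.66 for Gm8300, -7.81 for BB287469, -8.32 for Gm2016, -9.04 for Gm2022 and -8.20 for Gm5662 on the log2 scale, in a contrast in which 26.6% of all genes were called lower. Whether PlaB acted equally in Dux KD PlaB and PlaB was not tested. The difference between the libraries labelled Dux KD Zscan4 OE and Zscan4 OE, minus the Dux KD effect in RA, was -5.93 for Gm8300, -4.17 for BB287469, -6.47 for Gm2016, -5.18 for Gm2022 and -5.74 for Gm5662, where 6.22% of all genes were called lower. In these libraries Dux KD and the lower level of Zscan4 cannot be told apart. The SE KO effect in Dux OE minus that in RA was 2.80 for Gm8300, 2.30 for BB287469, 3.31 for Gm2016, 2.78 for Gm2022 and 2.92 for Gm5662, where 12.1% of all genes were called higher. Between PlaB and RA the SE KO effect differed for Gm2022 at -1.11, with the edgeR adjusted p = 0.0115, and this call was lost without RA replicate 2, SE KO RA replicate 1 or SE KO PlaB replicate 2. Here 20.7% of all genes were called lower, so 1 of 5 genes is near the share of all genes.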

How the results depend on the processing

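The number of the 5 genes called was within 1.5 times its main value in 193 of 200 alternatives. Fitted on the 2 groups alone, it went from 5 to 3 in DMSO against ESC and in Dux R70A OE against ESC. There Gm2022 and BB287469 did not pass the low-count filter, and all 3 genes tested were called. With DMSO as the control, Dux R70A OE went to 2. With no minimum fold, SE KO Dux OE went from 0 to 2. Leaving out 1 library at a time gave 4 to 5 genes in DMSO against ESC and 0 to 1 in the SE KO effect of PlaB minus RA (0 without RA replicate 2, SE KO RA replicate 1 or SE KO PlaB replicate 2), and the main number elsewhere. The cause of the changes outside the 2-group fits was not tested, except that fewer samples enter the left-out fits. Signs turned only in values that were not called. Over the fits that left out 1 library, the log2 fold change in Dux KD RA ran from -0.087 to 0.27 for Gm8300, -0.55 to 0.085 for BB287469, -0.062 to 0.35 for Gm2016, -0.43 to 0.051 for Gm2022 and -0.25 to 0.13 for Gm5662. The sign turned without RA replicate 2 (Gm8300, Gm2016), RA replicate 1 (Gm2022, Gm5662) or Dux KD RA replicate 1 (BB287469). In the SE KO effect of PlaB minus RA the range was -0.84 to 0.070 for BB287469, positive without SE KO RA replicate 1, and -0.38 to 0.11 for Gm2016, positive without RA replicate 2, SE KO RA replicate 2 or SE KO PlaB replicate 2. With a replicate block, the counts were 5 or 0 as without it, 1 in the SE KO effect of PlaB minus RA, and no call of any of the 5 genes changed. RLE scaling moved the median of all genes by over 0.1 in 5 contrasts (-0.16 to 0.15) and library size alone in 9 (-0.26 to 0.26), and the 5 genes moved by as much with no change of sign. Library size alone also moved the share of called genes that were higher from 66.5% to 76.7% in RA, 62.3% to 76.6% in Zscan4 OE, 60.4% to 77.5% in Dux R70A OE against ESC, 44.8% to 58.9% against Dux OE, and 49.2% to 35.4% in the Dux KD effect of Zscan4 OE minus RA. The count of all genes called moved by over 1.5 times with DMSO as the control, from 1992 to 3811 in Dux OE and 3550 to 1897 in Dux R70A OE, from 2331 to 1547 in Dux KD Zscan4 OE on the 2 groups alone, and from 1319 to 794 in SE KO Dux OE without Dux OE replicate 2. In 2 alternatives chosen after seeing the data, the call of Eif1ax in RA was lost against ESC, and all 11 copies were still lower without SE KO RA replicate 1. Depth limits Gm2022 and BB287469 in ESC, DMSO, Dux R70A OE, Dux KD Zscan4 OE and Dux KD PlaB, where no library had more than 11 counts.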
